A study of Homo sapiens with 9 samples.

Results

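The acute-phase plasma protein genes examined here were CRP, SAA1, SAA2, SAA4, HP, ORM1, ORM2, HAMP, SERPINA1 and SERPINA3, 10 of 20136 annotated protein-coding genes. The genes were taken as a named family and not by measured values, and every ATAC-seq peak that overlapped a gene body or the 20 kb on either side was taken. Overlapping windows were joined, so that 7 loci covering 367.676 kb remained. They held 20 of the 69730 peaks of the control list, 19 of the 69333 peaks of siINO80#1 and 16 of the 53113 peaks of siINO80#2. ATAC-seq marks open chromatin as the places where a transposase inserts sequencing adapters. It was performed in the HepG2 line, which derives from a human liver cancer. All cells received siRNA at 50 nM for 72 h. The siRNA was either the non-targeting control NTG or 1 of 2 siRNAs against INO80, the ATPase of a chromatin remodelling complex, called siINO80#1 and siINO80#2. The comparison asked which accessible sites near these genes were found with INO80 siRNA and which with the control. Each group had 3 replicates from separate siRNA transductions, but each group's peaks came as 1 pooled list. No replicate spread could therefore be computed and no test between groups was made.

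The acute-phase response is the change in plasma protein production by hepatocytes during inflammation. Interleukin-6 acts through STAT3, and interleukin-1 through NF-kB and C/EBP factors, to raise transcription of positive acute-phase genes. CRP and the SAA proteins can rise very steeply from a low basal level, whereas SERPINA1, HP and the ORM genes are already transcribed in resting liver. SAA4 is a constitutively expressed member of its family. No cytokine treatment is named in the labels.

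Depth and list size framed every count below. Recovered genome backgrounds of 3.82 reads in NTG, 5.16 in siINO80#1 and 5.34 in siINO80#2 gave relative read numbers of 1, 1.43 and 1.44. The siINO80#2 list was the shortest. INO80 itself had 1 start-site peak in every list, which does not check the depletion, since an siRNA acts on the transcript. Of 7 hepatocyte and HepG2 markers, 6 had a start-site peak in NTG, 5 in siINO80#1 and 4 in siINO80#2. Of 8 markers of other cell types 3, 4 and 3 had one, with CD14, COL1A2 and LRAT in all 3 lists. The part of other cells in the results was not tested.

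Few of the acute-phase genes had an accessible start site. A start-site peak was a peak with its summit, the point of strongest enrichment, within 1 kb of an annotated start of the gene. SAA4, SERPINA1 and ORM2 had such a peak in all 3 lists, and ORM1 had one in siINO80#1 alone. CRP, SAA1, SAA2, HP, HAMP and SERPINA3 had none in any list. That amounted to 3 of 10 genes in NTG, where 60.5% of all protein-coding genes had a start-site peak. It was 4 of 10 in siINO80#1, against 60.1% of all genes, and 3 of 10 in siINO80#2, against 53.4%. ORM1 was the only member whose start-site call differed between lists, 1 of 10 genes. Over all protein-coding genes 14.1% had a start-site peak in 1 or 2 lists, 50.8% in all 3 and 35.1% in none.

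**Figure D1:**
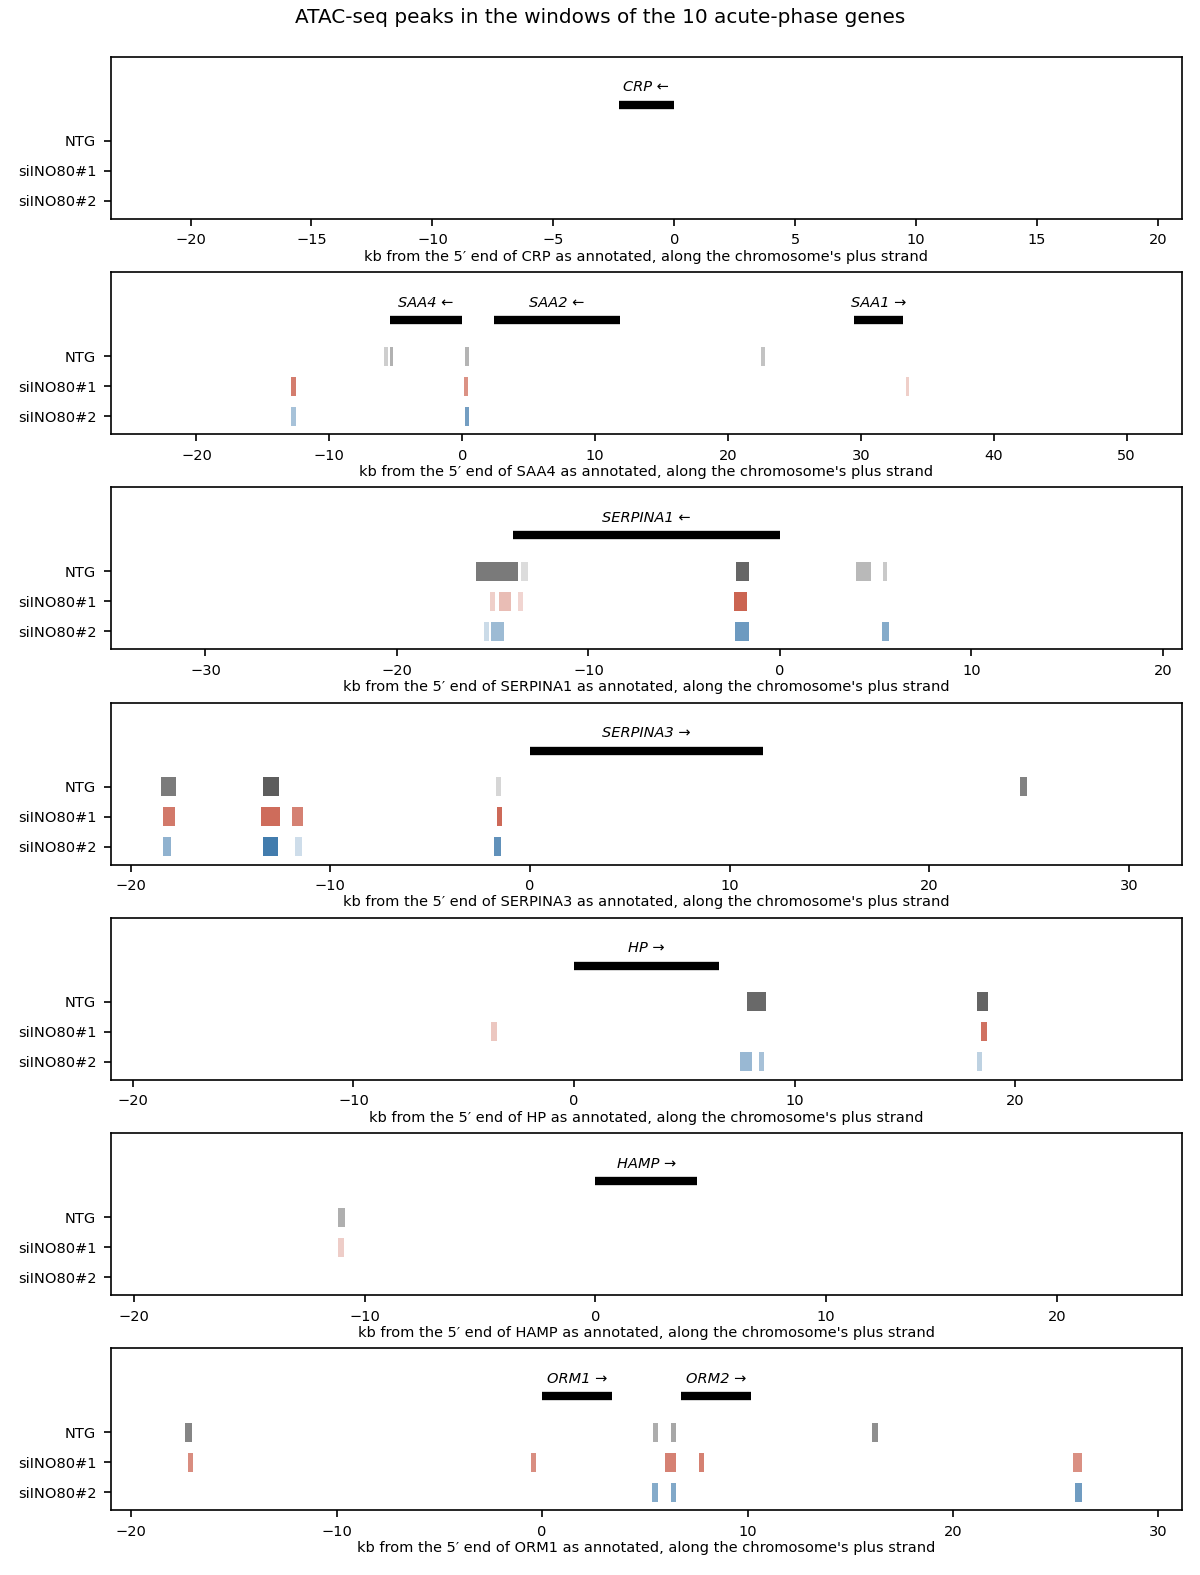
Peaks of the 3 lists (rows) in the 7 joined windows, with distance in kb from the 5′ end of the named gene on the x axis; black bars are the acute-phase genes, arrows give their direction, and darker boxes have a higher within-list percentile of fold enrichment. The CRP window is empty in every list, and peaks at SAA4, SERPINA1 and ORM2 lie at or beside a start site in all 3.

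The low count at start sites did not come with a low count of peaks around the genes. The joined windows held 54.4 peaks per Mb in NTG, 51.7 in siINO80#1 and 43.5 in siINO80#2, whereas the whole genome held 22.5, 22.4 and 17.2. A window of a single member held a median of 3, 2 and 2 peaks, beside a median of 2 in each list over the windows of all protein-coding genes. Members without any peak numbered 1, 1 and 3 of 10, and 14.8%, 15.5% and 21.5% of all genes had none. The peaks were mostly away from start sites. In NTG 3 were at a start site of a member, 4 at the start site of another gene and 13 were distal, meaning more than 1 kb from any annotated start. In siINO80#1 these numbers were 5, 4 and 10, and in siINO80#2 they were 3, 4 and 9. Distal peaks were fewer in both siINO80 lists than in NTG, by 3 and 4 peaks, but at equal list size their numbers were 8, 5 and 9. Peak strength was moderate. The median peak of the windows stood at the 37.1 percentile of fold enrichment in the NTG list, at 51.0 in siINO80#1 and at 43.4 in siINO80#2.

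The regions with the most reads at their summits were near the protease inhibitor genes. In NTG the local background was also highest at these loci, up to 14.7 reads at SERPINA1 and 11.5 at SERPINA3. By fold enrichment in NTG, a distal region of the HP locus (6.84) stood above the SERPINA1 start (6.61). SERPINA1 encodes alpha-1-antitrypsin, which inhibits neutrophil elastase. Its start-site region at chr14:94854628-94855431 (GRCh37) lay over an exon of SERPINA1. Of the 14 annotated starts of the gene, the nearest to the summits was at position 94855184. The summits were 61, 28 and 49 bp inside it in NTG, siINO80#1 and siINO80#2. The upstream group of SERPINA1 starts, between 94856951 and 94857030, had no peak in its 300-base RefSeq promoter in any list. The accessible promoter is shown because it carried the strongest start-site peak of the family. It is the RefSeq promoter entry, matched exactly once to GRCh37 at chr14:94854890-94855189 on the minus strand, with an HNF4A match in capitals. Other annotated starts lay within this promoter, among them 94854939. The summits, at 94855123 in NTG, 94855156 in siINO80#1 and 94855135 in siINO80#2, were upstream of that start.

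SERPINA1 promoter: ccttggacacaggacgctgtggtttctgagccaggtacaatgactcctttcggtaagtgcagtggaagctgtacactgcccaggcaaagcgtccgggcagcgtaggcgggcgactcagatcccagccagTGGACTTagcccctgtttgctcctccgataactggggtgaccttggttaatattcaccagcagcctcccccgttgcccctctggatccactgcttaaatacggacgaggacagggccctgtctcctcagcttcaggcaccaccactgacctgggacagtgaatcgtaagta

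At this promoter 71 reads covered the summit in NTG, 63 in siINO80#1 and 46 in siINO80#2. Fold enrichment over the local background was 6.61, 4.97 and 3.59, and the peak stood at the 87.9, 78.8 and 60.6 percentile of its list. Both measures were highest in NTG and lowest in siINO80#2. To set lists of unequal depth side by side, the reads at a summit were divided by the genome background of the list, here called height. The height ratio to NTG at the SERPINA1 start was 0.66 in siINO80#1 (95% counting interval 0.46 to 0.94) and 0.46 in siINO80#2 (0.31 to 0.68). These intervals cover counting error only, and the median ratio over all 29863 regions found in the 3 lists was 0.905 and 0.750. The siINO80#1 interval included that median, and the siINO80#2 interval lay below it.

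A broad region across the 3′ end of SERPINA1, chr14:94841169-94843353, had the lowest height ratio in siINO80#1. NTG had a single peak of 2185 bp there, and each siINO80 list had 2 shorter peaks inside it. Reads at the highest summit were 73, 33 and 33. The height ratio was 0.33 (0.21 to 0.51) in siINO80#1 and 0.32 (0.21 to 0.49) in siINO80#2, below the median of all regions with both siRNAs. The strongest siINO80#2 summit was 445 bp from that of NTG, so this ratio compares different summits. The local background was high in this window, from 6.50 to 14.7 reads over the NTG peaks, and by fold enrichment the values were 4.70, 2.49 and 2.76. Adjacent to it, a weak region in an exon was found in NTG and siINO80#1, with 31 and 27 reads. Upstream, a region 4339 bp before the nearest start was found in NTG alone, with 21 reads, and another 5473 bp before it in NTG and siINO80#2, with 19 and 26 reads.

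SERPINA3 encodes alpha-1-antichymotrypsin, an inhibitor of cathepsin G. It had no start-site peak, but its nearest summits were 1685, 1536 and 1552 bp upstream in NTG, siINO80#1 and siINO80#2, outside the 1 kb limit. This upstream element, chr14:95076929-95077311, had the highest height ratio to NTG of the 8 regions found in all 3 lists. The 200 bases around its strongest summit, chr14:95077085-95077284 on the plus strand, are shown because they hold 2 matches to the AP-1 motif, in capitals. AP-1 is the Fos and Jun family of factors.

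SERPINA3 upstream element: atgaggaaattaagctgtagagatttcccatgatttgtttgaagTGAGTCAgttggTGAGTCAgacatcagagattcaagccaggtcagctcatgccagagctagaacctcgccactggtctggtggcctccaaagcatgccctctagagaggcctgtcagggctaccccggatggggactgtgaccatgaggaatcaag

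At this element 15 reads covered the NTG summit, 39 the siINO80#1 summit and 33 the siINO80#2 summit. Fold enrichment was 2.42, 4.60 and 3.97, which placed the peak at the 5.13, 75.2 and 68.3 percentile. NTG was the lowest by each measure. The height ratio to NTG was 1.93 (1.04 to 3.76) in siINO80#1 and 1.57 (0.83 to 3.12) in siINO80#2. Both intervals lay above the median of all regions, and the siINO80#2 interval included a ratio of 1.

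The peak of highest fold enrichment in NTG and siINO80#2 over all windows lay 13 kb upstream of SERPINA3, at chr14:95065255-95066182, where the annotation places the start of ENSG00000288028. In siINO80#1 the peak at the SERPINA1 start was higher by this measure. Its central 200 bases, chr14:95065635-95065834 on the plus strand, are shown because the region had the most reads at its summit in each list, with an AP-1 match in capitals.

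SERPINA3 strongest region: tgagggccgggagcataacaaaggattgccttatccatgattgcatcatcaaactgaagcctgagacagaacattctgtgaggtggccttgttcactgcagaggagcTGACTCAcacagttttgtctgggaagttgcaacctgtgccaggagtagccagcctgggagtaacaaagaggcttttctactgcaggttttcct

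Here NTG had 101 reads, siINO80#1 65 and siINO80#2 74, and fold enrichment was 8.16, 4.41 and 5.65. The height ratio was 0.48 (0.34 to 0.66) and 0.52 (0.38 to 0.71), below the all-region median with both siRNAs. The regions with AP-1 matches at -13.0 kb and -1.5 kb had height ratios on opposite sides of that median. Another SERPINA3 region, with summits about 18 kb upstream, had 42, 41 and 30 reads and ratios of 0.72 (0.46 to 1.14) and 0.51 (0.31 to 0.84). A region at chr14:95066818-95067349, close to the strongest one, was found with both INO80 siRNAs but not with NTG. It had 50 reads and a fold enrichment of 3.50 in siINO80#1, and 27 reads and 2.19 in siINO80#2, where it stood at the 3.49 percentile. In the other direction, a region 17815 bp past the nearest SERPINA3 start was found in NTG alone, with 28 reads and a fold enrichment of 4.21.

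**Figure D2:**
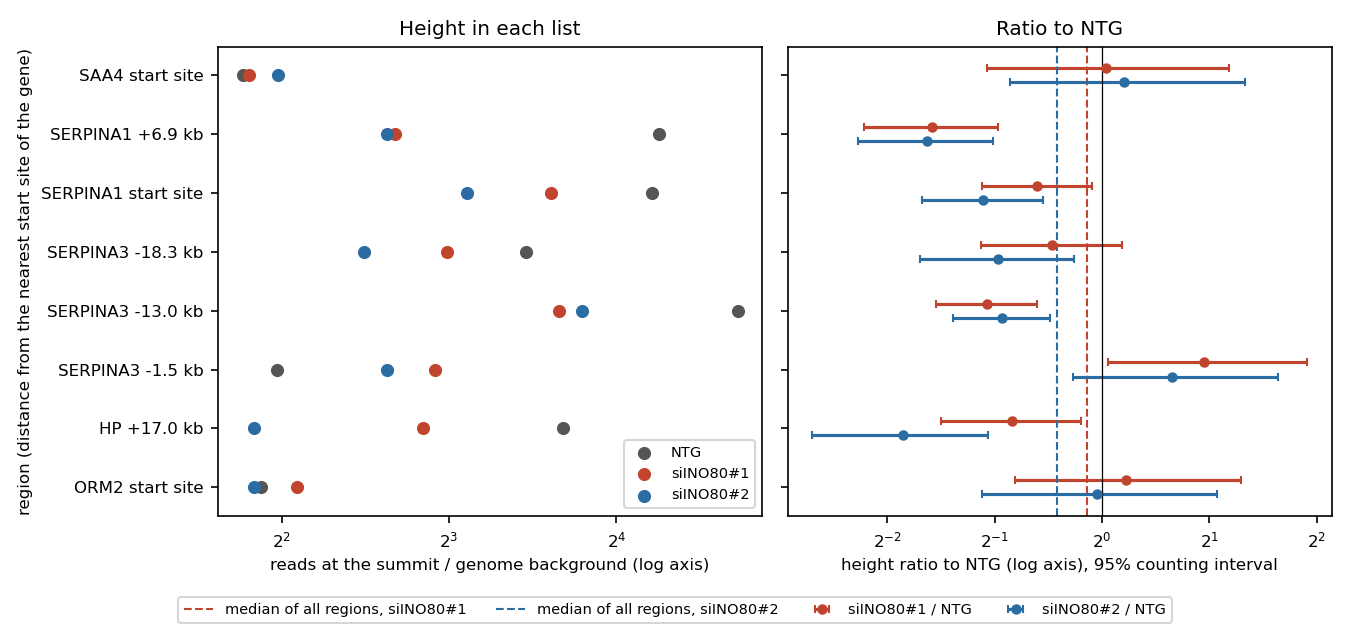
Height (reads at the summit over the genome background of the list, log axis) of the 8 regions found in all 3 lists, and its ratio to NTG with 95% counting intervals; dashed lines are the median ratio of all 29863 such regions. The SERPINA1 +6.9 kb, SERPINA3 -13.0 kb and HP +17.0 kb intervals lie below the dashed lines with both siRNAs, and the SERPINA3 -1.5 kb intervals lie above.

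Among the transport proteins, HP and the ORM genes had different patterns. HP encodes haptoglobin, which binds free haemoglobin. No peak lay within 1 kb of any of its 8 annotated starts. A region at the start of HPR, the haptoglobin-related gene next to it, was found in NTG with 40 reads and in siINO80#2 with 19, at chr16:72095924-72097104. The strongest distal region of this locus lay in an HPR intron at chr16:72106650-72107160. It had 49 reads in NTG, 37 in siINO80#1 and 19 in siINO80#2, and fold enrichment of 6.84, 4.17 and 2.45. The height ratio was 0.56 (0.35 to 0.87) and 0.28 (0.15 to 0.48). The siINO80#2 summit was 338 bp from that of NTG, and the peaks of the 2 siINO80 lists each overlapped the NTG peak but not each other, so the second ratio compares different summits. A weak distal peak 3676 bp upstream of HP, in an intron of TXNL4B, was found in siINO80#1 alone with 16 reads.

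ORM1 and ORM2 encode the orosomucoids, lipocalins that bind basic drugs. Their promoters were identical: the 300-base RefSeq promoter of ORM1 matched GRCh37 at chr9:117085128-117085427 and again at chr9:117091899-117092198, in front of ORM2. The start-site region of ORM2, chr9:117091337-117091919, had 14 reads in NTG, 22 in siINO80#1 and 19 in siINO80#2. Its fold enrichment was 3.11, 3.53 and 3.16. The height ratio was 1.16 (0.57 to 2.46) and 0.97 (0.46 to 2.09), so no difference was detectable at this depth. The siINO80#1 summit of highest enrichment was 750 bp upstream of the start, and those of NTG and siINO80#2 were 434 and 400 bp upstream. The siINO80#1 summit was thus 316 bp from that of NTG, and the siINO80#1 ratio compares different summits. A second ORM2 start-site peak, in an exon 954 bp inside the gene, was found in siINO80#1 alone with 22 reads. The ORM1 start-site peak, chr9:117084836-117085011, was also in siINO80#1 alone, with 19 reads and a fold enrichment of 3.17. The sequence around its summit, chr9:117084794-117084993, and the matching stretch of ORM2, chr9:117091565-117091761, both on the plus strand, are shown because the stretches are nearly the same, with the substituted bases in capitals.

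ORM1 upstream stretch: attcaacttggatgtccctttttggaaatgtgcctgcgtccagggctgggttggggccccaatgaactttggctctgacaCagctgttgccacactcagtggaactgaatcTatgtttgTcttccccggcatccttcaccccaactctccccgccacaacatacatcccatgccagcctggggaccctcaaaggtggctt

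ORM2 upstream stretch: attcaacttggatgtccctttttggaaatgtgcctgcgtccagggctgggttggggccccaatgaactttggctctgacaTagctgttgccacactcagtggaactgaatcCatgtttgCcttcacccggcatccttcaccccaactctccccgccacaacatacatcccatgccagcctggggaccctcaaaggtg

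Over 196 aligned bases 193 were identical, 3 were substituted and 5 had no partner. Counted from 1 at the 5′ end of the ORM1 stretch, with the ORM1 base first, the substitutions were C81T, T112C and T120C. The ORM2 stretch lay inside the ORM2 start-site region. How reads that fit both copies were assigned is not given in the sources used here, so the ORM1 and ORM2 start-site calls cannot be assigned to 1 gene with certainty. Of the 27 regions, the 3 ORM start-site regions were the ones with a second place of at least 90% identity in the genome. One further ORM locus region, at the AKNA start site (chr9:117111237-117111676), was found with both INO80 siRNAs but not with NTG, with 29 and 32 reads and fold enrichment of 3.12 and 3.52. AKNA encodes an AT-hook protein. The region at a COL27A1 start was found in NTG and siINO80#1 with 30 reads each, and the strongest purely distal region of the locus, in an AKNA intron at chr9:117101462-117101618, was found in NTG alone with 27 reads and a fold enrichment of 3.68. A weak distal region 1196 bp upstream of ORM2 was found in NTG with 14 reads and in siINO80#2 with 19.

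The SAA locus on chromosome 11 had a start-site peak at the constitutive gene and none at the inducible ones. SAA1 and SAA2 encode the serum amyloid A proteins that rise in inflammation and are carried on high-density lipoprotein. Neither had a start-site peak. One of the 5 SAA2 starts, and none of the 3 SAA1 starts, lay in 300 bases with a copy of at least 90% identity elsewhere. SAA4 had a start-site peak in each list, in the region chr11:18258454-18258852, with summits 291, 345 and 433 bp upstream of its start. The adjoining RefSeq promoter, chr11:18258300-18258599 on the minus strand, is shown because it held more matches to the searched motifs than any other member promoter, namely 3 to C/EBP, in capitals.

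SAA4 promoter: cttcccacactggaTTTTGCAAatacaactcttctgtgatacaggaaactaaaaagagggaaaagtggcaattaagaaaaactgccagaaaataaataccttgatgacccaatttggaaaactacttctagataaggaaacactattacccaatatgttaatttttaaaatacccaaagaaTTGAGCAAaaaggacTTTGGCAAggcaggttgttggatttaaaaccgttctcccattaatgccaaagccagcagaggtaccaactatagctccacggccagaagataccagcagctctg

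Peaks of all 3 lists overlapped this promoter, but every summit lay further upstream. Only the siINO80#1 peak, which began at 18258454, reached a C/EBP match, the one at bases 15 to 22 of the promoter. The matches at bases 182 to 189 and 197 to 204 lay outside it. The peaks of NTG and siINO80#2 began at 18258592 and 18258594 and reached only the upstream end of the promoter, short of every C/EBP match. Reads at the SAA4 summit were 13, 18 and 21 in NTG, siINO80#1 and siINO80#2, and fold enrichment was 2.91, 3.09 and 3.43. The percentile within the list was 29.8, 47.7 and 56.9. The −log10 q was 2.13, 3.33 and 4.60, below the list medians of 4.35, 4.45 and 4.69. At a −log10 q of at least 5 SAA4 therefore had no start-site peak either. The height ratio was 1.03 (0.48 to 2.28) and 1.16 (0.55 to 2.51), intervals that held both 1 and the all-region median. Beyond the 3′ end of SAA4, a distal region at chr11:18245467-18245821 was found with both INO80 siRNAs but not with NTG. Its 200 bases at chr11:18245620-18245819, plus strand, are shown because they held an HNF4A match and a FOXA match, in capitals in that order.

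SAA region of both siINO80 lists: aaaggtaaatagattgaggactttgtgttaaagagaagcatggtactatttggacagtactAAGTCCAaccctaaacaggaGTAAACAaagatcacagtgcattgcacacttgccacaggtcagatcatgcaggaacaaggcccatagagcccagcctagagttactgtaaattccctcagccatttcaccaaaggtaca

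It had 23 reads and a fold enrichment of 3.66 in siINO80#1, and 17 reads and 2.67 in siINO80#2. Conversely, 3 weak distal regions were found in NTG alone, with 12, 13 and 15 reads. One of them, at chr11:18252929-18253082, lay in an exon of SAA4. A distal peak 3983 bp past the SAA1 start was found in siINO80#1 alone with 15 reads. A peak missing from a list may lie below the calling threshold or may have been filtered out after calling, and the lists give no value for it.

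CRP and HAMP had the fewest regions, 0 and 1. CRP encodes C-reactive protein, a pentraxin that binds phosphocholine and activates complement. Its window on chromosome 1 had no peak in any list, and the nearest summit was 84478, 66093 and 84203 bp from a CRP start. HAMP encodes hepcidin, the hormone that limits iron export through ferroportin. Its window had a single region, chr19:35760452-35760749 at the start of USF2, 11037 bp upstream of HAMP, with 25 reads in NTG and 29 in siINO80#1. In siINO80#2 the window was empty and the nearest summit was 31982 bp from a HAMP start. None of the annotated starts of CRP, HAMP, HP, SERPINA1 or SERPINA3 had a near-identical copy elsewhere by the same criterion.

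Across all loci the peaks merged into 27 regions. Of these 8 were in all 3 lists (29.6%, 95% Wilson interval 15.9% to 48.5%), and 26.8% of all 111260 regions were. NTG alone had 6 (22.2%, 10.6% to 40.8%), against 24.4% of all regions. Both siINO80 lists without NTG had 3 (11.1%, 3.85% to 28.1%), against 5.19%. A further 4 regions were in siINO80#1 alone (14.8%, 5.92% to 32.5%), where 21.6% of all regions were. None was in siINO80#2 alone (0 of 27, interval up to 12.5%), against 11.7%. NTG and siINO80#1 shared 3 (11.1%, 3.85% to 28.1%), against 7.64%. NTG and siINO80#2 also shared 3, with the same interval, against 2.62%. That last class, the regions at SERPINA1 -5.5 kb, the HPR start and ORM2 -1.2 kb, was the one whose interval did not hold the share of all regions, and the other 6 intervals did. No allowance was made for the number of classes compared, and the intervals treat regions of the same locus as independent. At a −log10 q of at least 5 this class had 0 regions. Among the 17 distal regions 4 were in all 3 lists (23.5%) and 8 in a single list (47.1%), and of all distal regions 20.3% and 63.9% were. Of the 10 regions at a start site of any gene 4 were in all 3 lists and 2 in a single list, and of all start-site regions 54.3% and 31.8% were. The 4 were 3 at member starts and the one at the ENSG00000288028 start.

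**Figure D3:**
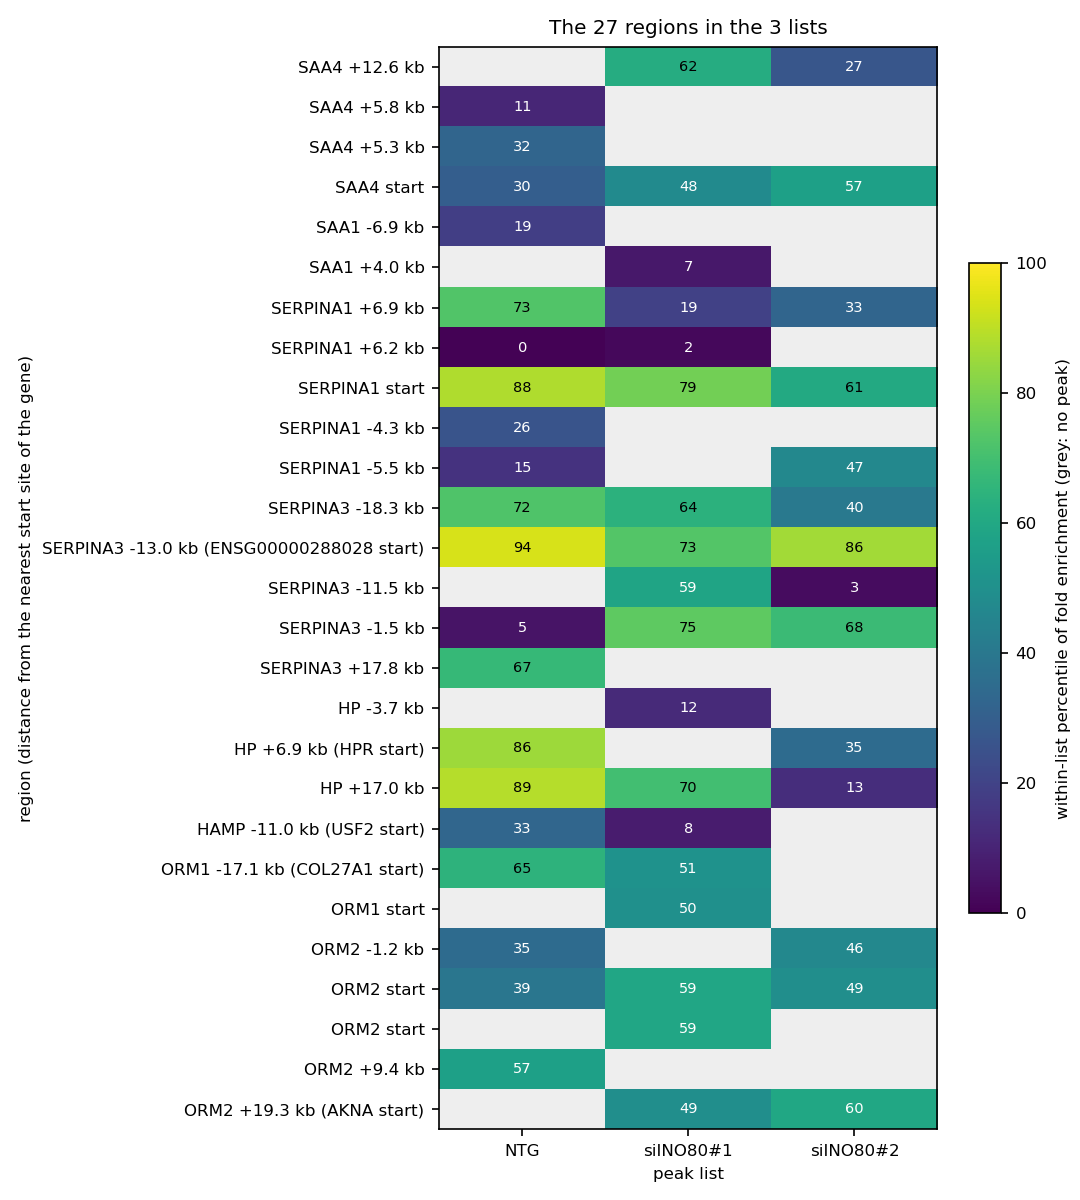
The 27 regions (rows) by list (columns), named by the nearest acute-phase gene and the distance from its nearest start site; colour and number give the within-list percentile of fold enrichment and grey means no peak. Filled cells in all 3 columns mark the 8 shared regions, and the SERPINA3 -1.5 kb region goes from 5 in NTG to 75 and 68.

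Heights could be compared in the 8 shared regions. Their median log2 height ratio was -0.54 for siINO80#1 and -0.95 for siINO80#2, beside -0.14 and -0.42 over all shared regions of the genome. With each siRNA 5 of the 8 lay below the all-region median. Taking a ratio at least 2-fold from that median, 1 of 8 was lower in siINO80#1, the SERPINA1 3′ region, where 1.15% of all regions were. With siINO80#2, 2 of 8 were lower, this region and the one at HP, where 1.4% of all were. The SERPINA3 -1.5 kb element was the 1 of 8 that was higher with each siRNA, where 2.05% and 3.02% of all regions were. Both siRNAs were compared with the same NTG list, so a value particular to that list enters both ratios. With fold enrichment in place of height, the lower count became 0 in siINO80#1 and 1 in siINO80#2, and the higher count of siINO80#2 became 0, the SERPINA3 element being 1.00 and 0.98 above the median on the log2 scale.

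Sequence motifs were searched on both strands in 200 bases at the strongest summit of each region. The HNF4A letters AAGTCCA were in 5 of the 27 regions (18.5%), and in 4.09% of all regions. These were at SERPINA1 (the start site and the -5.5 kb region) and at 3 distal regions of the SAA locus. AP-1 (TGANTCA) was in 5 regions (18.5%) and in 15.7% of all, at SERPINA1, SERPINA3 and the AKNA start. The C/EBP letters TTGCNNAA were in 2, FOXA (TGTTTAC) in 1, and STAT3 (TTCNNNGAA), the BMP-responsive letters GGCGCC and the NF-kB consensus in 0, whereas 10.3%, 4.95%, 6.08%, 4.41% and 2.34% of all regions held them. RefSeq promoters, from GRCh38.p14, were at hand for 6 of the 10 genes, 7 promoters in all. The HAMP promoter held 1 STAT3 and 1 BMP-responsive match, whereas 7.66% and 19.2% of all 35116 promoters held each. The CRP, ORM1 and SERPINA3 promoters held no match to any of the 7 motifs. A match is a description of letters and does not show that a factor was bound.

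Start-site peaks were also counted at other genes of the acute-phase response. Among 18 other positive acute-phase genes 11, 12 and 10 had a start-site peak in NTG, siINO80#1 and siINO80#2. Over all protein-coding genes 60.5%, 60.1% and 53.4% had one. FGA, FGG and CP, which encode 2 fibrinogen chains and ceruloplasmin, had one in all 3 lists, and FGB, LBP and APCS in none. SERPING1, the C1 inhibitor, had one in siINO80#1 alone, and C4BPA, a complement regulator, in NTG and siINO80#1. These 2 were 11.1% of the 18, and 14.1% of all protein-coding genes had a start-site peak in 1 or 2 lists. All 8 negative acute-phase genes, whose products fall in inflammation, had one in NTG and siINO80#1, TTR, TF and RBP4 among them. ALB, albumin, lacked one in siINO80#2.

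Most of the signalling genes upstream had a start-site peak. Of 19 genes of interleukin-6 and interleukin-1 signalling 18, 16 and 14 had one. Those of IL6ST, the shared receptor subunit, JAK2 and STAT3 were in all 3 lists, and SOCS3, the feedback inhibitor, had none. CEBPB and MYD88 lacked one in siINO80#2, and IRAK1 and RELA had one in NTG alone. In NTG and siINO80#1 the CEBPB peak stood at the 10.6 and 0.016 percentile of fold enrichment, and that of MYD88 at 5.34 and 6.86. In NTG the IRAK1 and RELA peaks stood at 21.6 and 61.4. Of 14 regulators of hepcidin 13, 12 and 10 had one. SMAD1, SMAD4 and BMP6 were in all 3 lists and TFR2 in none, HFE and NEO1 were missing in siINO80#2, and TMPRSS6, the protease that restrains hepcidin, was in NTG alone. Of 6 liver transcription factors 6, 6 and 4 had one, with HNF4A, FOXA1 and FOXA2 in all 3. CEBPA and ONECUT1 were missing in siINO80#2. Their percentiles in NTG and siINO80#1 were 0.77 and 28.3 for CEBPA, and 9.57 and 58.3 for ONECUT1. Of the marker genes AFP was in NTG alone and PTPRC in siINO80#1 alone. Genes with a peak in 1 or 2 peak lists were 21.1% of the signalling genes, 21.4% of the hepcidin regulators and 33.3% of the liver factors. They were 28.6% of the hepatocyte and HepG2 markers and 12.5% of the markers of other cell types. The share over all protein-coding genes was 14.1%. In 6 of these 7 gene lists the siINO80#2 count was the lowest, as it was over all genes, and among the markers of other cell types it equalled that of NTG.

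**Figure D4:**
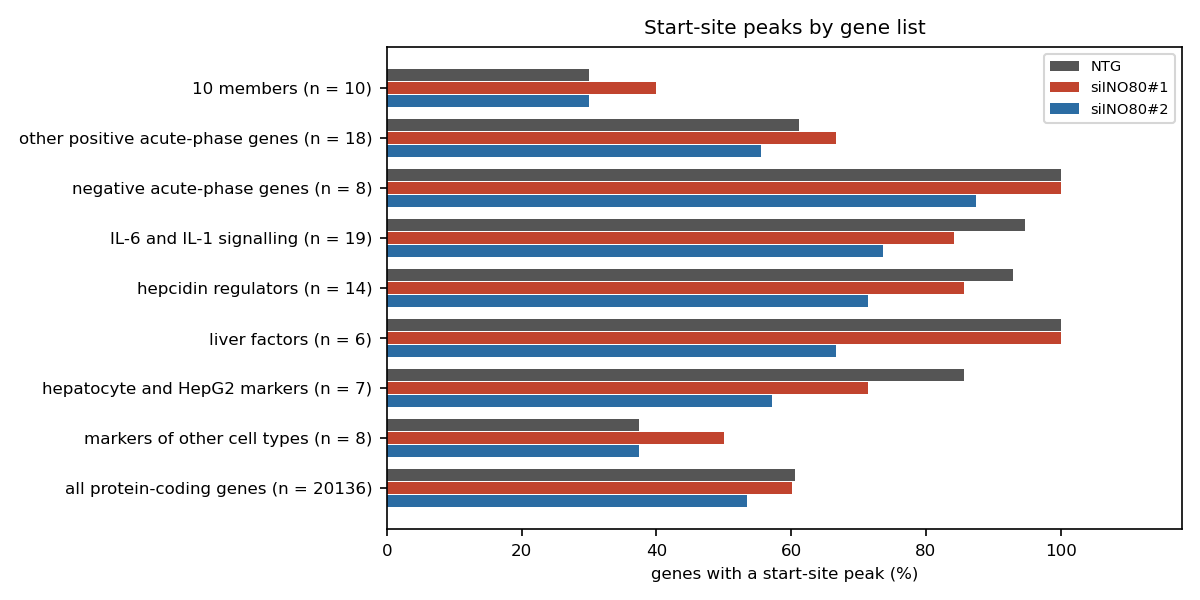
Share of genes with a start-site peak (x axis, percent) in each gene list, for the 3 peak lists. The 10 acute-phase plasma protein genes reach 3, 4 and 3 of 10, below the 60.5%, 60.1% and 53.4% of all protein-coding genes, and the 8 negative acute-phase genes reach 8, 8 and 7.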

How the data were processed

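The samples were 9 ATAC-seq libraries of HepG2, 3 per siRNA, and titles gave the groups. For each siRNA the authors deposited 1 list of peaks, in the MACS2 format. The lists were filtered after calling by a criterion not given in the sources used here, since 324, 371 and 334 peak numbers were skipped in NTG, siINO80#1 and siINO80#2. The submitters' processing notes name Trim Galore 0.4.1, Bowtie2, SAMtools, MACS2, deepTools 2.2.4 and hg19, without roles. How the transposase offset and reads that map to several places were handled is not given in the sources used here. The deposited fold enrichment is a ratio of summit reads to the local background of the same list, and the deposited p and q are −log10 values, the lowest −log10 q being 1.30. No count per replicate was used.

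Coordinates were used with GRCh37 (GENCODE 44 lifted), on which 0 peaks passed a chromosome end. Intervals with several summits were counted once, at the summit with the highest fold enrichment, and 1 bp was enough for overlap. Reads at summits were solved from fold enrichment and −log10 p by the MACS2 formulas, missing −log10 p by at most 0.00121, and this and the merging were tested on simulated data. Height is these reads over the lowest background of the list, and a merged region took its highest summit in each list. Counting intervals are exact binomial, shares have 95% Wilson intervals, and both cover counting error only. The relative read numbers assume that the shortest peak is the fragment length. Copies were searched with blastn 2.17.0 at 90% identity over 90% of the stretch. Scripts used Python 3.11.15, pandas 2.3.3, scipy 1.17.1, pysam 0.24.0 and Biopython 1.88.

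The genes, gene lists and motifs were chosen with earlier results of these data known. By rule the text names all 10 members, other genes with a start site in the windows, and, of each list, genes found in 1 or 2 lists with up to 3 examples each of those in all and in none. Regions given in full are member start sites, the strongest distal region of each locus and those found with both INO80 siRNAs but not NTG. HFE2 of the hepcidin list is HJV in the annotation, and PECAM1 was not analysed here. Some genes and 1 motif first chosen are not reported here. Alternatives were another q, list size, window, start-site distance, start-site choice, merging and overlap. Fold enrichment in place of height, a call at 1.5-fold and summits within 200 bp of the strongest were added after seeing the data.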

Additional observations from a re-analysis of the deposited data

Results flagged for a closer look

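Of 19 measures examined (peaks per locus, counts over all windows, median percentile and the heights of shared regions relative to the median of all shared regions), 1 moved in opposite directions with the 2 siRNAs. The ORM locus had 4 peaks in NTG, 1 more in siINO80#1 and 1 fewer in siINO80#2, a difference of 1 and -1. Before that median was subtracted, the height at the ORM2 start site also differed in sign, with log2 ratios of 0.22 and -0.04 whose counting intervals both held 0. Neither difference was tested, since each group had 1 list. The peaks of siINO80#1 that the other lists lacked included those at the ORM1 start and inside ORM2. The best second place of these sequences had an identity of 98.0% and 90.5% by blastn.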

How the results depend on the processing

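No paired analysis was possible because each group had 1 pooled list, and leaving out replicates was not run for the same reason. Of 137 values under other settings, 86 stayed within 1.5 times the count reported (or within its interval or spread) and 51 moved. A reversal could be recorded only for the median log2 height ratios, where there were 0. Counts and shares could only stay or move, so a changed order between lists was not recorded as a reversal. Values follow in the order NTG, siINO80#1, siINO80#2. At a −log10 q of at least 5, peaks were 9, 11 and 4, distal peaks 5, 5 and 1, members with a start-site peak 1, 2 and 1, and all genes with one 50.0%, 50.4% and 42.3%. Regions in all 3 lists were then 2 and those in NTG and siINO80#2 0. At equal list size, distal peaks were 8 in NTG and 5 in siINO80#1, all genes with a start-site peak 55.5% and 54.9%, and regions 2 in siINO80#1 alone, 1 in siINO80#2 alone and 1 in NTG and siINO80#1. So the excess of distal peaks in NTG over siINO80#2 (13 against 9) was 8 against 9 there. With 5 kb either side, peaks were 11, 11 and 9 and distal peaks 7, 6 and 4. Regions were 5 in all 3 lists, 3 in NTG alone, 1 in NTG and siINO80#1, and 0 in both siINO80 lists without NTG. With 50 kb, peaks were 40, 32 and 26, and distal peaks 26 in NTG and 16 in siINO80#1. There were 16 regions in all 3 lists, 14 with NTG alone, 6 with NTG and siINO80#1, and 1 with siINO80#2 alone. A start-site distance of 2.5 kb gave 4, 5 and 4 members, 5 distal peaks in siINO80#2 and 64.5%, 63.7% and 57.0% of all genes. With only the outermost start of each gene, members with a start-site peak were 2, 3 and 2. SERPINA1, whose outermost start is at 94857030, then had none. An overlap of at least 50% gave 1 region in siINO80#2 alone. By fold enrichment, regions lower than NTG were 0 and 1 and those higher in siINO80#2 0. At 1.5-fold, 3 were lower in siINO80#1 and 2 higher in siINO80#2. With summits within 200 bp, the SERPINA1 3′ region in siINO80#2 went from -1.21 to -1.66 relative to the median on the log2 scale. At this setting 1 was lower in siINO80#2, as the HP region gave no value there. The ORM2 start-site region gave no value with either siRNA. The cause of these differences was not tested beyond what each setting does by construction. Reads at summits of 12 to 30 limit what weak peaks can show.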
